A study of Mus musculus with 6 samples.

Results

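The 48 genes described here encode the antioxidant defence of the cell: superoxide dismutases and catalase, glutathione and thioredoxin enzymes, peroxiredoxins, glutathione transferases, selenoproteins, metallothioneins and the regulators of this defence. They were chosen by gene symbol from the 45291 symbols of the deposited table, and all 48 symbols were found. Where a symbol had several loci, the locus with the highest mean was taken. Total RNA came from primary hippocampal cultures, prepared from newborn mice and grown for 14 days in vitro, and 3 wild type (WT) libraries were set against 3 from *Fmr1* knockout (KO) mice. Both genotypes are labelled C57BL/6, with no treatment listed, and the substrain is not stated. The study's animals were male *Fmr1* KO mice and WT littermates bred from heterozygous females and WT males, and which pups or litters went into a library is not stated. Each library is labelled as hippocampal neuron, although such a culture also holds glia. *Fmr1* encodes FMRP, an RNA-binding protein whose loss causes fragile X syndrome, and the comparison asked which transcripts differ when it is lost. Nothing in the labels says that the libraries of a genotype came from separate animals, so p-values measure the spread between these libraries only.

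Levels are given as FPKM, as the authors deposited it. FPKM scales sequenced fragments to transcript length, so levels can be compared between genes, and to the size of a library. How the libraries were scaled to each other is not given. Differences are given as log2 changes of *Fmr1* KO against WT on the scale log2(FPKM + 0.1), which understates the change of weakly expressed genes. They come from limma, fitted across all 13195 loci whose mean in WT or in *Fmr1* KO reached 1 FPKM, with Benjamini-Hochberg adjustment over all of them, two-sided. The *Fmr1* transcript itself had an FPKM of 19.0, 19.5 and 19.7 in WT replicates 1 to 3 and 23.1, 21.8 and 18.5 in the libraries labelled *Fmr1* KO (log2 change 0.12, adjusted p = 0.536 in limma), so its level does not check the labels, on which each direction below rests. The absolute sequencing depth is unknown. In these cultures the 10 astrocyte markers summed to 1743 to 2050 FPKM in WT and 1799 to 1995 in *Fmr1* KO, beside 862 to 903 and 899 to 969 for the 8 excitatory neuron markers, so astrocyte transcripts were abundant beside neuronal ones. In such a mixed culture, fewer cells of a type and less RNA per cell cannot be told apart.

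Reactive oxygen species are removed in steps. Superoxide dismutases turn superoxide into hydrogen peroxide, which catalase, the glutathione peroxidases and the peroxiredoxins then reduce to water. Glutathione and thioredoxin supply the electrons, and their own reductases restore them with NADPH. The transcription factor NRF2 (*Nfe2l2*), held down by KEAP1, switches on many of these genes under oxidative stress. In brain, astrocytes are known to hold much of the glutathione system and to supply neighbouring neurons with glutathione precursors. Several of the enzymes are selenoproteins, in which a UGA codon inside the reading frame is read as selenocysteine, the selenium-containing amino acid of the active site.

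That codon divides the 5 glutathione peroxidases of the list, and it is shown here to tell apart the family members whose levels are given below. Each line gives up to 30 bases of coding sequence from the GENCODE M21 transcripts (GRCm38), 5′ to 3′ on the coding strand and with T for U. Capitals mark the selenocysteine TGA or, in *Gpx7* and *Gpx8*, the cysteine codon that aligned to the TGA of *Gpx1* in a protein alignment.
Gpx1: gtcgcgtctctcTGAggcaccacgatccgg
Gpx3: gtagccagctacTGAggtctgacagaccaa
Gpx4: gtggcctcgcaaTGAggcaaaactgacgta
Gpx7: gtagctagcgaaTGTggcttcacagaccag
Gpx8: gtggctagtgacTGCcgcttcacagacaag
Selenop: cttcaagccagcTGAtacttgtgtcttctg
Selenow: tattgtggagctTGAggctataagcccaag
The codons of *Gpx1* (codon 47, chr9:108339451-108339453, exon 1), *Gpx3* (codon 73, chr11:54907256-54907258, exon 2) and *Gpx4* (codon 73, chr10:80054737-80054739, exon 3) lie on the forward strand and are annotated as selenocysteine. The cysteine codons are codon 56 of *Gpx7* (chr4:108403430-108403432, exon 2, reverse strand) and codon 79 of *Gpx8* (chr13:113045661-113045663, exon 2, reverse strand). *Selenop*, which codes for the plasma selenium carrier selenoprotein P, has 10 in-frame TGA codons among its 380 codons, and the line shows the first (codon 59, chr15:3274848-3274850, exon 2, forward strand). *Selenow* has 1, at codon 13 of 88 (chr7:15920464-15920466, exon 2, reverse strand).

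Of the 48 genes, 43 were tested. *Sod3*, *Gstt1* and *Nqo1* were detected below the minimum of 1 FPKM, and *Gstp1* and *Txnrd2* were listed at 0 in every library. The 43 had a median level of 32.3 FPKM, against 10.2 for all tested loci. The 9 genes above 100 FPKM were led by *Selenow*, and the 5 most abundant genes made up 54.2% of the summed FPKM of the list, with the 3 metallothioneins alone at 27.7%. That sum was 3347, 2967 and 3174 in WT replicates 1 to 3 and 3158, 3013 and 3201 in *Fmr1* KO, so the total output of these genes overlapped between the genotypes.

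**Figure D1:**
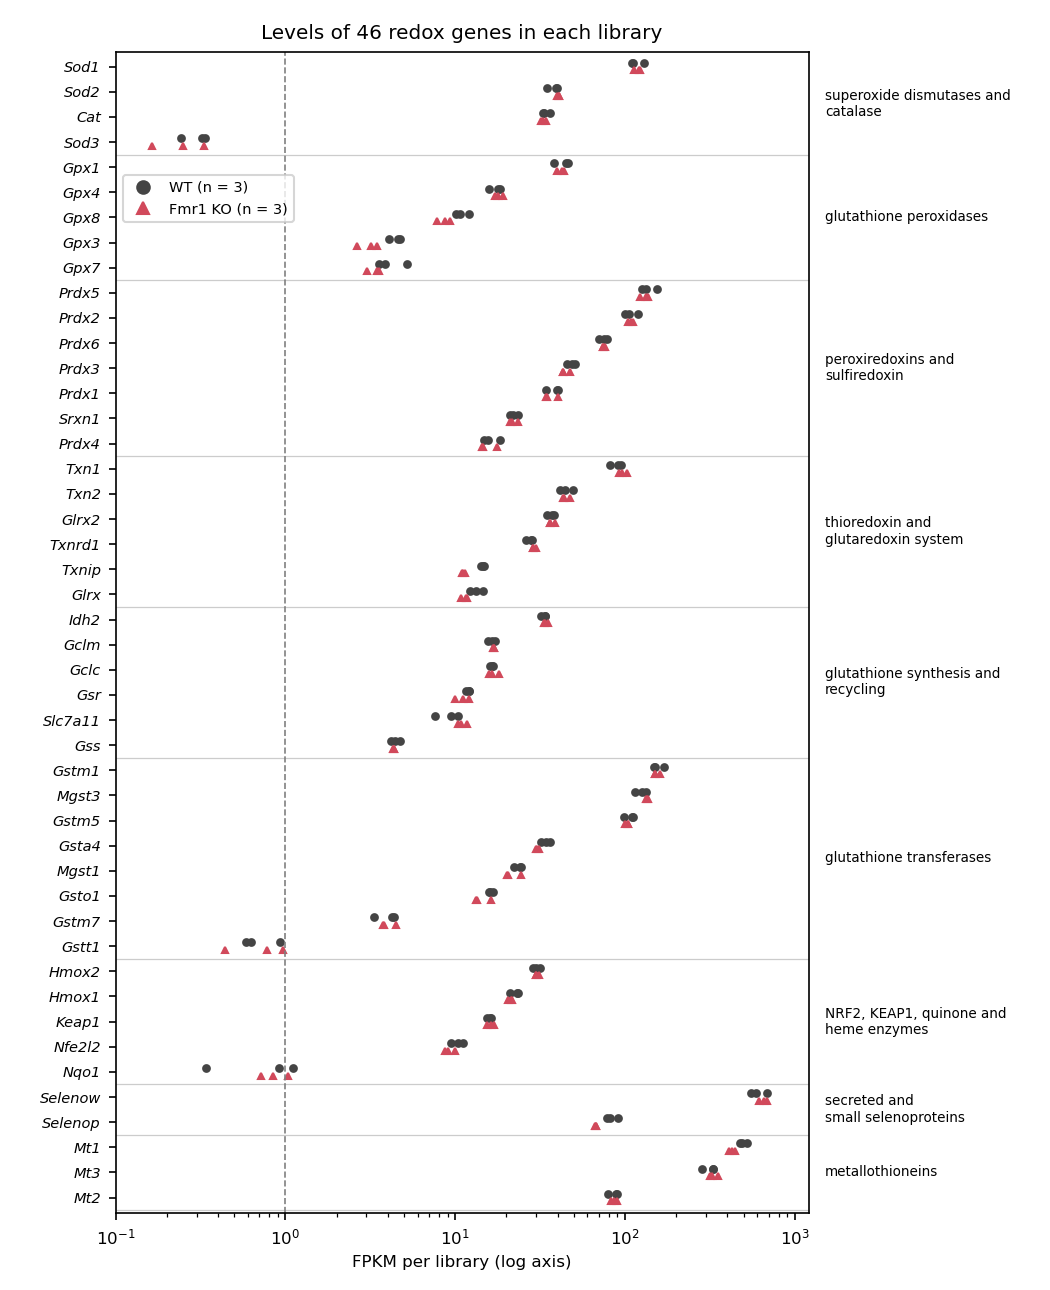
FPKM of the 46 genes listed above 0 in each of the 3 WT (circles) and 3 *Fmr1* KO (triangles) libraries, on a log axis and grouped by role; the dashed line is the minimum of 1 FPKM for testing. Levels span from under 1 FPKM for *Sod3*, *Gstt1* and *Nqo1* to a mean of 629 for *Selenow*, and for most genes the libraries of the genotypes overlap.

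The differences between genotypes were small for most of the list. In limma with Benjamini-Hochberg adjustment, 1 gene fell at an adjusted p below 0.05, the thioredoxin inhibitor *Txnip*, and 0 rose, where 0.174% of all tested loci were lower and 0.0909% higher by this rule. At an unadjusted p below 0.05, 7 of the 43 genes (16.3%) were lower in *Fmr1* KO and 1 (2.33%) was higher, beside 7.77% and 6.99% of all tested loci. The 7 were *Txnip*, *Selenop*, *Gpx3*, *Mt1*, *Gpx8*, *Glrx* and *Gsta4*, and the 1 was *Slc7a11*. Without WT replicate 2 there were 11 lower genes, and the count of higher genes was 2 without WT replicate 1 or 3 and 0 without WT replicate 2, *Fmr1* KO replicate 2 or *Fmr1* KO replicate 3. All *Fmr1* KO libraries lay below all WT libraries in 8 genes and above them in 3 (11 of 43 in all), where the shares over all tested loci were 10.3% and 10.8%, together 21.1%. The median log2 change of the 43 genes was -0.02, beside 0.00498 for all tested loci, and the median size of the change without its sign was 0.07 against 0.08. For the 31 genes that overlapped between genotypes with an unadjusted p above 0.05, the log2 changes lay between -0.18 and 0.13 and the 95% intervals from limma all lay between -0.36 and 0.30.

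**Figure D2:**
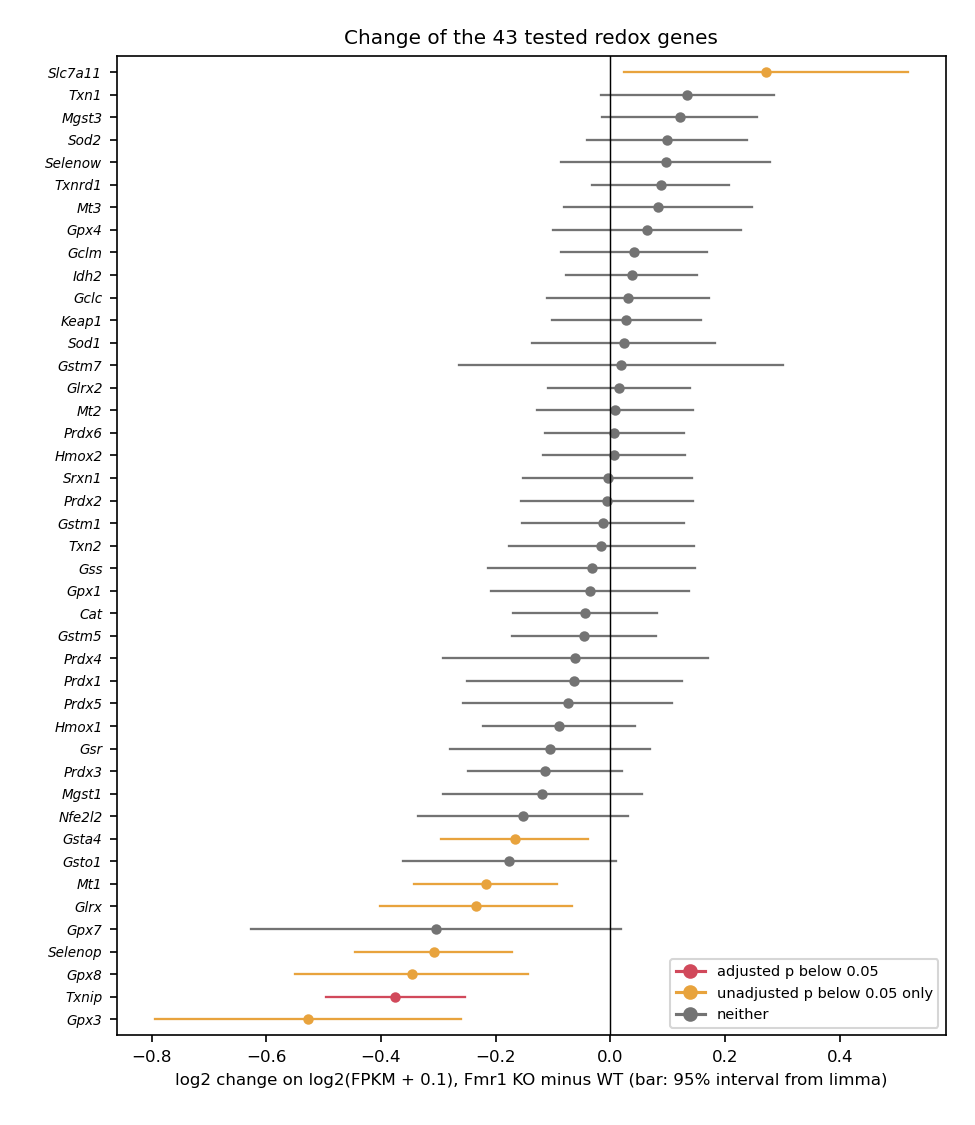
Log2 change of *Fmr1* KO against WT for the 43 tested genes, ordered by size, with the 95% interval from limma (3 libraries per genotype). *Txnip* is the gene past an adjusted p of 0.05, at -0.38, and the points run from -0.53 for *Gpx3* to 0.27 for *Slc7a11*.

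*Txnip* encodes the thioredoxin-interacting protein, which binds and inhibits reduced thioredoxin and also limits glucose uptake. Its FPKM was 14.1, 14.7 and 14.6 in WT replicates 1 to 3 and 10.9, 11.4 and 11.1 in *Fmr1* KO replicates 1 to 3. The 3 *Fmr1* KO libraries thus lay together at 76.9% of the WT mean, well clear of WT. The log2 change was -0.38 (standard error 0.05, 95% interval -0.50 to -0.25, adjusted p = 0.0359 in limma). An exact two-sided permutation test of the 6 values gave p = 0.1, the smallest that 3 libraries against 3 allow. The call rests on all 6 libraries. Without any 1 of them, the log2 change was between -0.39 and -0.36 but the adjusted p was between 0.0537 and 0.162 in limma, and it was 0.0753 without an FPKM minimum and 0.0602 without the mean-variance trend.

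The *Txnip* gene lies on chromosome 3 (chr3:96557957-96561857, forward strand, GRCm38). Its promoter is shown because *Txnip* is a well-known target of the glucose-sensing factors MondoA and ChREBP, which bind a carbohydrate response element. The 250 bases before the gene's start (RefSeq, GRCm38.p6, chr3:96557707-96557956) hold 1 match to the carbohydrate response element, in capitals below, at 85 to 69 bases before the start.
Txnip: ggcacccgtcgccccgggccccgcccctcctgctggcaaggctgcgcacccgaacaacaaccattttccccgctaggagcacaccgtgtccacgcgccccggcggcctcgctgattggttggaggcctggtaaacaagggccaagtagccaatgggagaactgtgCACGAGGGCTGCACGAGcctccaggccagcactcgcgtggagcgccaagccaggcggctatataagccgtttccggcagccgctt
The search asked for a pair of CACGNG boxes with any 5 bases between them, on both strands. It found a match in 15 of 32851 promoters of the same length (0.0457%), and in 1 of the 42 genes of the list with a promoter in RefSeq, *Txnip* itself. A match describes the sequence and is not evidence of binding here. An antisense gene, *Gm15441*, shares 606 exon bases with *Txnip*, and its own FPKM was at most 0.166 in any library. Without a stated library strand, reads from the shared bases cannot be assigned to either gene.

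The partners of *Txnip* in the thioredoxin system did not pass the adjusted test. *Txn1*, the cytosolic thioredoxin that *Txnip* inhibits, had 94.2, 81.0 and 90.3 FPKM in WT replicates 1 to 3 and 102, 92.2 and 96.4 in *Fmr1* KO, which overlapped (log2 change 0.13, adjusted p = 0.393 in limma). The ratio of *Txnip* to *Txn1* FPKM within a library was 0.150, 0.181 and 0.161 in WT replicates 1 to 3 and 0.107, 0.123 and 0.115 in *Fmr1* KO. The ratios did not overlap, and this pair was chosen after its values were seen. *Txnrd1*, the selenoprotein that reduces cytosolic thioredoxin, had 26.0, 27.8 and 28.3 FPKM in WT and 28.7, 28.7 and 29.8 in *Fmr1* KO, without overlap (log2 change 0.09, and 0.05 without WT replicate 1, the lowest library). Mitochondrial thioredoxin *Txn2* was at 45.1 ± 4.03 and 44.5 ± 2.25 FPKM (n = 3, SD) and mitochondrial glutaredoxin *Glrx2* at 36.7 ± 1.66 and 37.0 ± 1.49. Its cytosolic counterpart *Glrx*, which removes glutathione from proteins, had 14.5, 13.3 and 12.3 FPKM in WT and 11.6, 10.8 and 11.7 in *Fmr1* KO. Its log2 change was -0.23 (standard error 0.07, unadjusted p = 0.0115, adjusted p = 0.212 in limma), so it did not pass over all loci although the libraries did not overlap.

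The glutathione peroxidases spread most. *Gpx3* encodes the secreted, plasma glutathione peroxidase, and its FPKM was 4.71, 4.08 and 4.62 in WT replicates 1 to 3 and 3.45, 3.17 and 2.63 in *Fmr1* KO. Its mean in *Fmr1* KO was 69.0% of that in WT, the lowest share among the tested genes of the list. The log2 change was -0.53 (standard error 0.12, 95% interval -0.79 to -0.26, adjusted p = 0.107 in limma), which did not pass. *Gpx8*, a membrane protein of the endoplasmic reticulum, had 12.1, 10.1 and 10.7 FPKM in WT and 8.72, 9.25 and 7.78 in *Fmr1* KO. Its libraries were also separated (log2 change -0.35, standard error 0.09, adjusted p = 0.150 in limma). The gene lies on chromosome 13, 6.29 Mb from *Nnt*, and the part of this position in its level was not tested. *Gpx7*, a second peroxidase of the endoplasmic reticulum, had 5.18, 3.58 and 3.85 FPKM in WT and 3.02, 3.45 and 3.57 in *Fmr1* KO. Its highest *Fmr1* KO library was just under its lowest WT library, and the log2 change of -0.30 (adjusted p = 0.367 in limma) was -0.15 without WT replicate 1.

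The intracellular, selenocysteine-containing enzymes of the family had overlapping libraries. *Gpx1*, the abundant cytosolic form, was at 43.1 ± 4.18 FPKM in WT and 41.9 ± 2.12 in *Fmr1* KO (n = 3, SD; 95% interval of the log2 change -0.21 to 0.14). *Gpx4*, which reduces lipid hydroperoxides in membranes and guards against ferroptosis, was at 17.3 ± 1.36 and 18.1 ± 0.978 FPKM (n = 3, SD; interval -0.10 to 0.23). The ratio of *Gpx3* to *Gpx1* FPKM was 0.102, 0.107 and 0.103 in WT replicates 1 to 3 and 0.0813, 0.0801 and 0.0600 in *Fmr1* KO, without overlap, for a pair chosen after its values were seen.

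*Selenop* had the next smallest p in the list after *Txnip*. Its FPKM was 81.1, 78.0 and 91.0 in WT replicates 1 to 3 and 66.8, 67.4 and 67.3 in *Fmr1* KO replicates 1 to 3. The *Fmr1* KO libraries lay within 1 FPKM of each other, at 80.6% of the WT mean. The log2 change was -0.31 (standard error 0.06, 95% interval -0.45 to -0.17, adjusted p = 0.0766 in limma), just outside the threshold. *Ccdc152* shares 439 exon bases with *Selenop* on the opposite strand and was at 0 or under 0.1 FPKM in each library. Reads from these shared bases cannot be assigned to either gene. *Selenow*, a small selenoprotein found in neurons and muscle, was the most abundant gene of the list, with 685, 554 and 587 FPKM in WT and 653, 614 and 681 in *Fmr1* KO. These overlapped (log2 change 0.10, adjusted p = 0.621 in limma).

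The metallothioneins, small cysteine-rich proteins that bind zinc and copper, form a cluster on chromosome 8, with 18.5 kb between *Mt3* and *Mt2* and 5.32 kb between *Mt2* and *Mt1*. *Mt1* had 524, 475 and 490 FPKM in WT replicates 1 to 3 and 426, 409 and 446 in *Fmr1* KO. All *Fmr1* KO libraries lay below WT, at 86.0% of the WT mean (log2 change -0.22, standard error 0.05, unadjusted p = 0.00350, adjusted p = 0.142 in limma). *Mt2*, which is usually induced together with *Mt1*, was at 85.7 ± 5.53 FPKM in WT and 86.2 ± 3.76 in *Fmr1* KO (n = 3, SD; 95% interval of the log2 change -0.13 to 0.14). *Mt3*, the brain form, had 331, 282 and 329 FPKM in WT and 326, 317 and 354 in *Fmr1* KO, which overlapped.

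**Figure D3:**
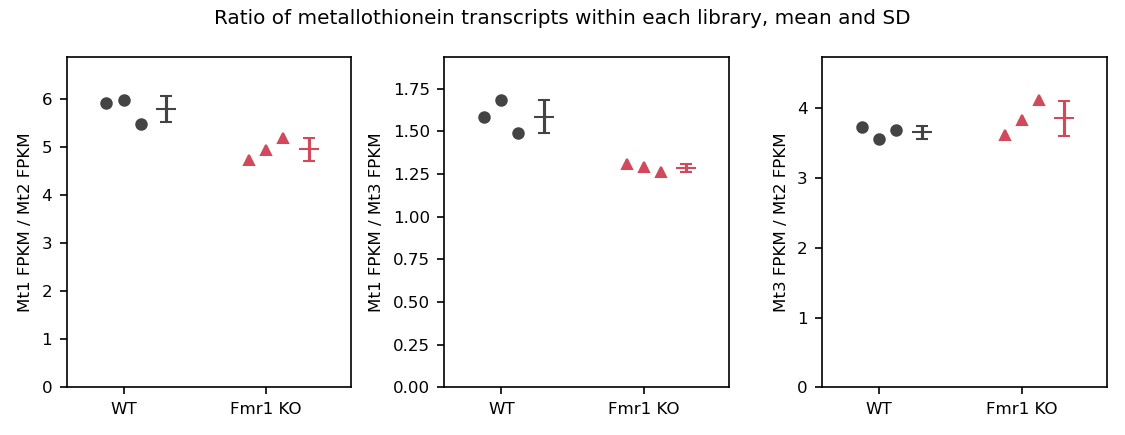
Ratio of FPKM between metallothionein genes within each library, with the mean and SD of the 3 libraries of each genotype; points are libraries and each axis starts at 0. *Mt1* relative to *Mt2* and to *Mt3* is lower in all 3 *Fmr1* KO libraries, and the ratio of *Mt3* to *Mt2* overlaps.

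Ratios within a library do not depend on how the library was scaled. The ratio of *Mt1* to *Mt2* was 5.80 ± 0.276 in WT and 4.96 ± 0.231 in *Fmr1* KO (n = 3, SD), and that of *Mt1* to *Mt3* was 1.59 ± 0.0974 and 1.29 ± 0.0240. Neither overlapped between genotypes. The ratio of *Mt3* to *Mt2* was 3.66 ± 0.0941 and 3.86 ± 0.252 and did overlap. The 3 ratios were formed after the values had been seen and were not tested. An antisense gene, *Gm45774*, shares 432 exon bases with *Mt2*, and without a stated library strand its reads cannot be told apart from those of *Mt2*. The same holds for *Txnip*, *Selenop*, *Prdx2*, *Prdx5*, *Gss*, *Gclm*, *Gstm5*, *Hmox2* and *Keap1*, which also share exon bases with a gene on the opposite strand.

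In the synthesis and recycling of glutathione, *Slc7a11* was the gene with the highest log2 change of the whole list. It encodes the light subunit of the cystine-glutamate exchanger, which imports the cystine needed for glutathione and releases glutamate. Its FPKM was 7.64, 9.37 and 10.4 in WT replicates 1 to 3 and 10.3, 11.7 and 10.9 in *Fmr1* KO. The lowest *Fmr1* KO library lay just below the highest WT library. The log2 change was 0.27 (standard error 0.11, unadjusted p = 0.0350, adjusted p = 0.298 in limma), and it was 0.15 without WT replicate 1. The ligase that sets the rate of synthesis had overlapping libraries. Its catalytic subunit *Gclc* was at 16.4 ± 0.319 FPKM in WT and 16.8 ± 1.14 in *Fmr1* KO, and its modifier *Gclm* at 16.4 ± 0.787 and 16.9 ± 0.211 (n = 3, SD). Glutathione synthetase *Gss*, glutathione reductase *Gsr* and mitochondrial isocitrate dehydrogenase *Idh2*, a source of NADPH, had log2 changes of -0.03, -0.11 and 0.04, each with overlapping libraries.

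Among the glutathione transferases, which join glutathione to electrophiles, *Gsta4*, an enzyme for the lipid peroxidation product 4-hydroxynonenal, had 36.1, 32.1 and 34.4 FPKM in WT and 31.1, 30.5 and 29.7 in *Fmr1* KO. The libraries were separated by a small gap (log2 change -0.17, standard error 0.06, adjusted p = 0.236 in limma). The microsomal *Mgst3* was the opposite, with 125, 114 and 133 FPKM in WT and 134, 133 and 136 in *Fmr1* KO. Its log2 change of 0.12 (adjusted p = 0.392 in limma) was 0.06 without WT replicate 2. *Gstm1*, the most abundant transferase at 156 ± 12.1 and 154 ± 6.01 FPKM, and *Gstm5*, at 106 ± 6.77 and 103 ± 2.34 (n = 3, SD), both overlapped, as did *Gsto1*, *Mgst1* and *Gstm7*. The mu class genes are close copies in one cluster on chromosome 3, so reads may be split between them. *Gstt1* was at 0.712 ± 0.186 FPKM in WT and 0.729 ± 0.266 in *Fmr1* KO (n = 3, SD).

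*Gstp1* and *Txnrd2* have 2 and 4 loci in the deposited table, on a chromosome and on scaffolds outside it, and all of them were listed at 0 in all 6 libraries. Among protein-coding symbols with several loci, 591 of 987 (59.9%) were listed at 0 throughout, against 19.9% of the 20016 with 1 locus. A listed 0 is therefore not read as absence of these transcripts, and the pi class transferase and mitochondrial thioredoxin reductase are left without a level.

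The superoxide dismutases and catalase differed little. Copper-zinc *Sod1* was at 117 ± 11.2 FPKM in WT and 118 ± 5.16 in *Fmr1* KO (n = 3, SD), and catalase (*Cat*), a peroxisomal enzyme, between 32.0 and 36.0 FPKM in all 6 libraries (log2 change -0.04). Mitochondrial *Sod2* had 34.5, 39.8 and 39.1 FPKM in WT and 40.8, 39.8 and 40.6 in *Fmr1* KO, separated by less than 0.1 FPKM. Its log2 change of 0.10 (adjusted p = 0.495 in limma) was 0.04 without WT replicate 1, its lowest library. Extracellular *Sod3* was at 0.301 ± 0.0497 and 0.248 ± 0.0835 FPKM. The 6 peroxiredoxins and *Srxn1*, the sulfiredoxin that repairs overoxidized peroxiredoxins, had overlapping libraries throughout, with log2 changes from -0.11 for mitochondrial *Prdx3* to 0.01 for *Prdx6*. The most abundant of them was *Prdx5*, with 155, 132 and 125 FPKM in WT and 136, 122 and 132 in *Fmr1* KO.

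Of the 4 tested genes of the NRF2 axis, 0 were past an adjusted or an unadjusted p of 0.05 in limma. *Nfe2l2* was at 10.3 ± 0.837 FPKM in WT and 9.26 ± 0.636 in *Fmr1* KO (n = 3, SD; log2 change -0.15, adjusted p = 0.423 in limma). *Keap1*, its inhibitor, was at 15.8 ± 0.435 and 16.1 ± 0.741, and the heme oxygenases had log2 changes of -0.09 for the inducible *Hmox1* and 0.01 for the constitutive *Hmox2*. *Nqo1*, a classic NRF2 target, was barely detected, with 0.339, 1.11 and 0.913 FPKM in WT and 0.717, 0.849 and 1.03 in *Fmr1* KO. The core letters of the antioxidant response element, TGACNNNGC on either strand, were sought in the 250 bases before each listed start of a gene. At least 1 start had a match in 9 of the 42 genes of the list that have a RefSeq promoter (21.4%). Of 27025 genes in all, 11.5% had such a match, which is not evidence of binding here. The 9 are *Gclm*, *Gstm5*, *Gstm7*, *Mgst1*, *Mt2*, *Nfe2l2*, *Prdx1*, *Sod1* and *Txnrd1*, and their log2 changes ran from -0.15 for *Nfe2l2* to 0.09 for *Txnrd1*.

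**Figure D4:**
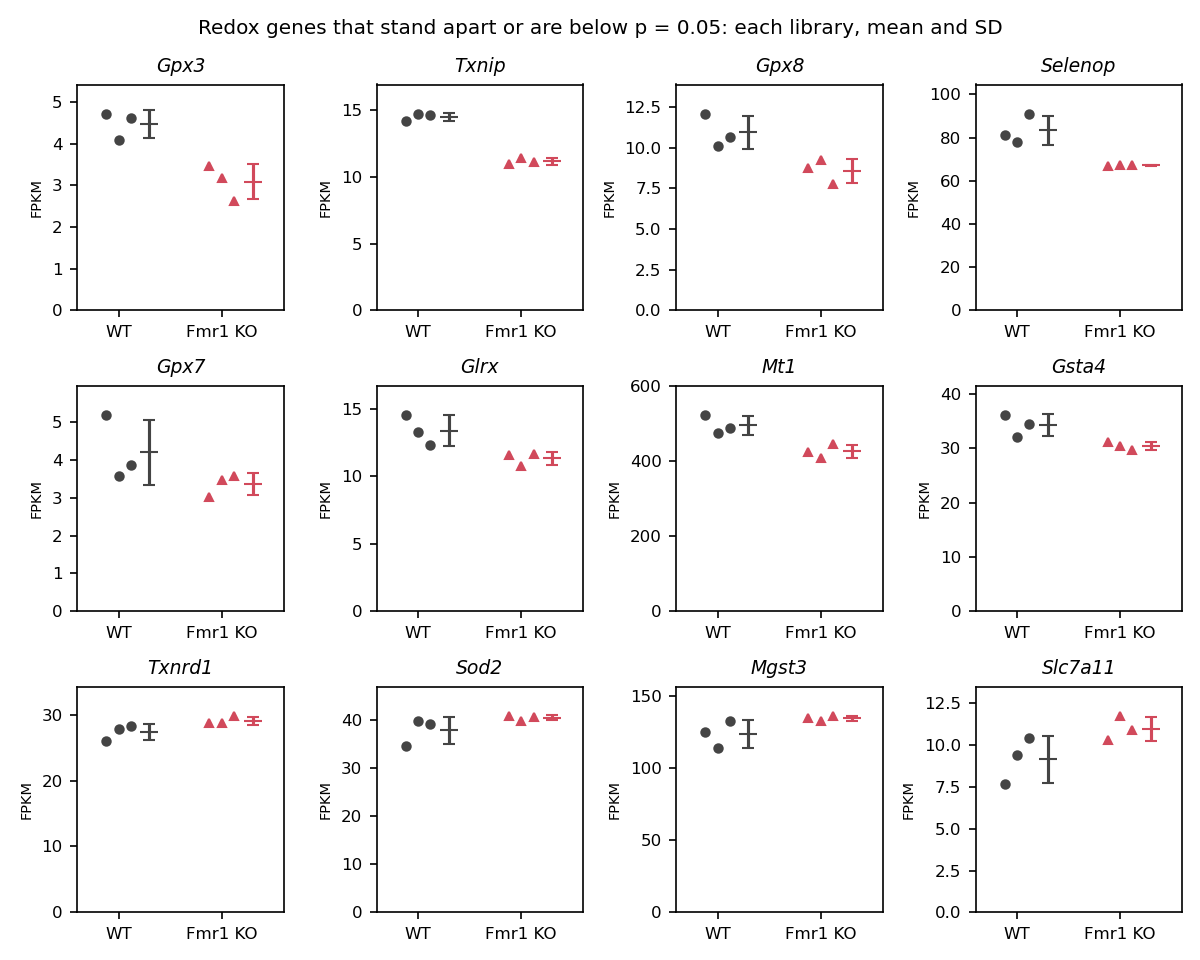
FPKM in each library, with the mean and SD of 3 WT and 3 *Fmr1* KO libraries, for the 12 genes with an unadjusted p below 0.05 or with libraries that do not overlap; each axis starts at 0. *Txnip* and *Selenop* show *Fmr1* KO libraries that lie close together under WT, while *Sod2*, *Txnrd1* and *Mgst3* are separated by small gaps only.

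Of 90 further genes of the same pathways that are not in the list, 73 were tested. In limma with Benjamini-Hochberg adjustment 1 fell at an adjusted p below 0.05 and 0 rose, and at an unadjusted p below 0.05, 9 were lower and 3 were higher (12.3% and 4.11%), where all tested loci gave 7.77% and 6.99%, together 14.8%. Without WT replicate 2, 14 were lower, and without WT replicate 1 or 3, 5 were higher. The one that fell was *Nnt*, the mitochondrial transhydrogenase that makes NADPH for glutathione and thioredoxin reduction, with 10.7, 11.5 and 11.7 FPKM in WT and 6.80, 7.01 and 6.48 in *Fmr1* KO (log2 change -0.73, standard error 0.07, adjusted p = 0.00374). *Nnt* is known to differ between C57BL/6 substrains. The animals are described as littermates and their substrain is not stated, and the part of substrain in this result was not tested. The other 6 genes of NADPH supply lay between -0.16 for *Pgd* and 0.03 for *Taldo1*.

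Among other selenoproteins, 2 of 13 tested were lower and 1 was higher at an unadjusted p below 0.05, in a table where 14.8% of all loci were past it in either direction. *Selenos*, which acts in the removal of misfolded proteins from the endoplasmic reticulum, had 25.2, 22.8 and 24.0 FPKM in WT and 20.5, 19.3 and 17.5 in *Fmr1* KO, without overlap (log2 change -0.33, adjusted p = 0.0925 in limma). *Selenom*, also of the endoplasmic reticulum, had a log2 change of -0.18 with overlapping libraries (-0.12 without WT replicate 1). *Dio2*, the deiodinase by which astrocytes make active thyroid hormone, was higher, at 37.1 ± 2.67 FPKM in WT and 43.7 ± 2.34 in *Fmr1* KO (n = 3, SD), without overlap (log2 change 0.24, adjusted p = 0.170 in limma). Of the 5 genes for the insertion of selenocysteine, 1 was lower by that rule (7.77% of all tested loci), the elongation factor *Eefsec*, with 9.04 ± 0.476 FPKM in WT and 7.55 ± 0.297 in *Fmr1* KO (n = 3, SD; log2 change -0.26, adjusted p = 0.156).

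Of the other genes of glutathione metabolism, 3 of 14 tested were lower and 0 were higher at an unadjusted p below 0.05 in limma (7.77% and 6.99% of all tested loci), and 0 passed adjustment. They were *Gstm4*, a mu class transferase, at 4.79 ± 0.511 and 3.58 ± 0.342 FPKM, *Ggct*, which breaks down gamma-glutamyl peptides, at 9.46 ± 0.925 and 7.84 ± 0.825, and *Hagh*, the glyoxalase that releases glutathione again, at 24.6 ± 0.861 and 21.5 ± 2.20 (n = 3, SD). Their log2 changes were -0.41, -0.27 and -0.20, and that of *Hagh* was -0.12 without *Fmr1* KO replicate 2. In the wider thioredoxin family, 2 of 14 were lower and 0 higher at an unadjusted p below 0.05 (7.77% and 6.99% of all tested loci). The larger change was in *Msrb2*, the mitochondrial methionine sulfoxide reductase, with 5.85, 6.60 and 6.14 FPKM in WT and 4.87, 4.55 and 4.38 in *Fmr1* KO (log2 change -0.42, standard error 0.08, adjusted p = 0.0753 in limma).

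**Figure D5:**
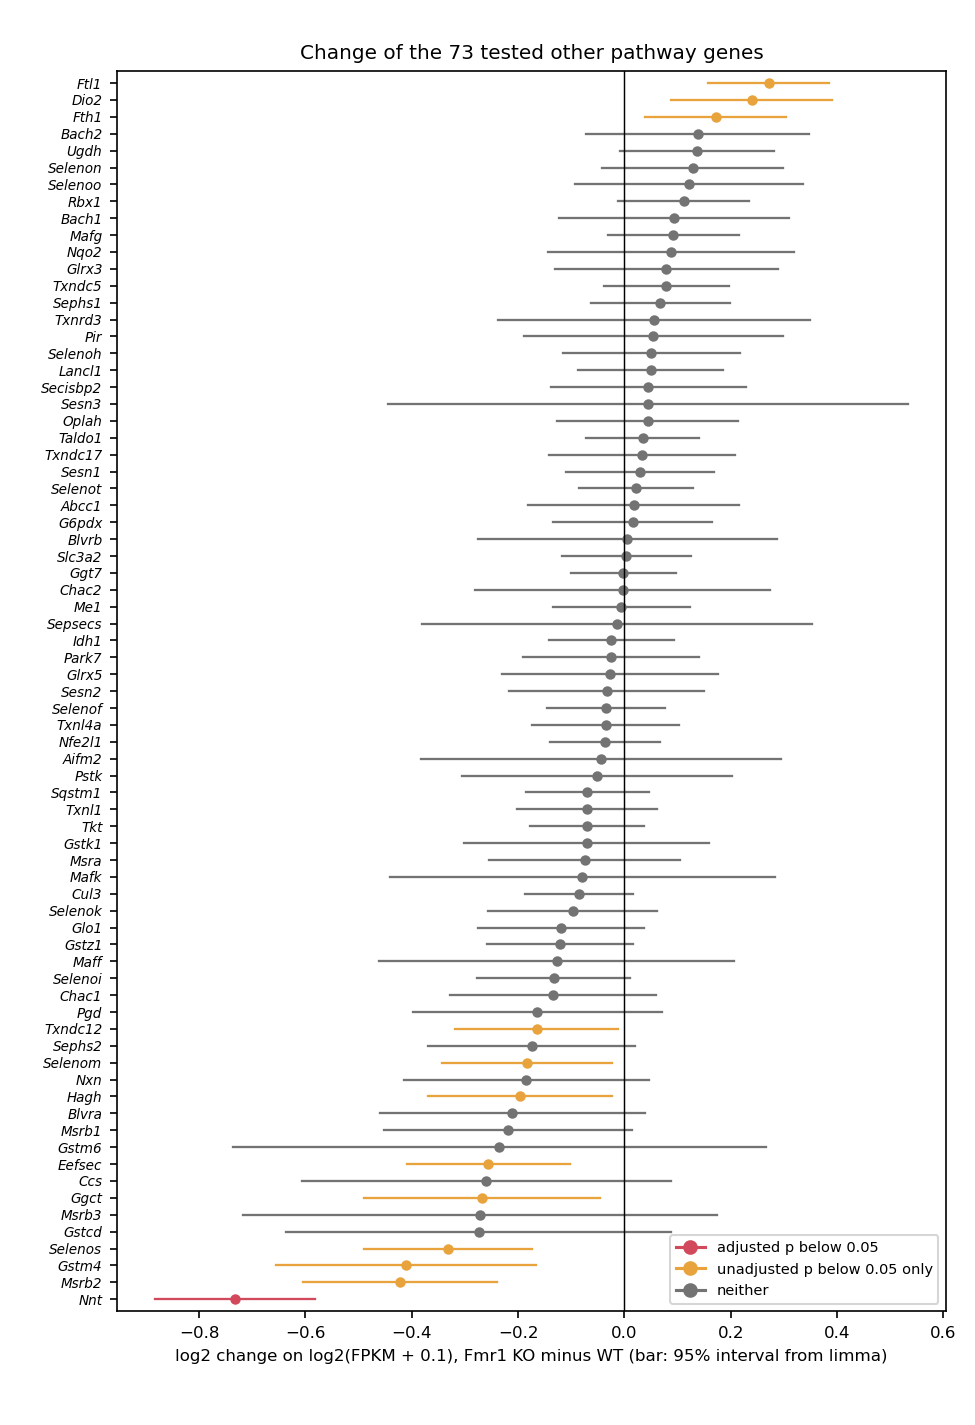
Log2 change of *Fmr1* KO against WT for the 73 tested genes of the same pathways outside the list, with the 95% interval from limma (3 libraries per genotype). *Nnt* is past an adjusted p of 0.05, and the unadjusted calls hold 9 genes below 0 and 3 above it.

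Levels of some cell type markers also differed between the genotypes. The 10 microglia markers summed to 5.28 to 7.41 FPKM in WT and 1.06 to 3.05 in *Fmr1* KO. *Aif1* and *Tmem119* were listed at 0. The 3 tested were *C1qa*, *C1qb* and *C1qc*, all lower at an unadjusted p below 0.05 in limma. They reached the minimum of 1 FPKM through WT alone, with means of 1.43, 1.05 and 1.30 against 0.399, 0.163 and 0.357 in *Fmr1* KO. The filter favoured a lower call, so this count is not read as a result. Among markers under the minimum, *Cx3cr1*, *Itgam* and *P2ry12* lay lower without overlap, and *Csf1r* and *Tyrobp* overlapped. The 10 fibroblast and mural markers summed to 62.6 to 65.9 and 54.3 to 59.8 FPKM, with 1 of 5 tested lower (*Dcn*). Without *Dcn* the other 9 summed to 21.3 to 23.6 and 20.8 to 24.2 FPKM, which overlapped, and among them *Col1a2* lay higher and *Tagln* lower in all *Fmr1* KO libraries, both under 1 FPKM. The 8 endothelial markers summed to 3.59 to 3.75 and 2.26 to 2.97, with *Cldn5* listed at 0. The 1 tested, *Kdr*, overlapped, with a log2 change of -0.00324. Of those detected under 1 FPKM, *Pecam1* lay lower without overlap, and *Cdh5*, *Flt1*, *Tek*, *Emcn* and *Esam* overlapped. Of the 10 astrocyte markers, 3 were lower at an unadjusted p below 0.05 (*Gjb6*, *S100b* and *Gja1*) and 0 were higher, while their summed level overlapped. The gap junction gene *Gjb6* also passed the adjusted test, with a log2 change of -0.85 and 55.0% of the WT mean (adjusted p = 0.00679 in limma), a larger change than that of any tested gene of the list. Of 8 choroid plexus and ependymal markers, *Ttr* was higher, and their sum was 2.50 to 3.25 FPKM in WT and 55.4 to 65.6 in *Fmr1* KO, with *Kl* listed at 0. *Ttr*, at 0, 0 and 0.0910 FPKM in WT replicates 1 to 3 and 56.6, 52.0 and 60.7 in *Fmr1* KO, made up most of the *Fmr1* KO sum. *Ttr* and *Folr1* reached the minimum of 1 FPKM through *Fmr1* KO alone, with means of 0.0303 and 0.777 in WT against 56.4 and 1.19. The filter favoured a higher call here, so the number of higher calls in this list is not read as a result. The 7 markers other than *Ttr* summed to 2.50 to 3.25 FPKM in WT and 3.37 to 4.89 in *Fmr1* KO, without overlap. Among them 3 (*Aqp1*, *Otx2* and *Clic6*) lay higher in all *Fmr1* KO libraries and 0 lay lower, and these 3 were under 1 FPKM. The oligodendrocyte lineage markers summed to 372 to 433 and 416 to 465 FPKM, with 2 of 8 tested higher, and the inhibitory neuron markers to 418 to 448 and 397 to 453, with 2 of 7 lower. Of the excitatory neuron markers, 1 of 8 was lower and 1 was higher. The counts of tested markers use an unadjusted p below 0.05 in limma, where 7.77% of all tested loci were lower and 6.99% higher. The markers under 1 FPKM were not tested and are given by overlap of the libraries only. By that rule 10.3% of all tested loci lay lower and 10.8% higher. The part of these cell types in the levels of *Selenop*, *Gpx3*, *Gpx8*, *Gpx7* and *Mt1* was not tested.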

How the data were processed

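RNA-seq of 6 libraries (3 WT, 3 *Fmr1* KO) was used, grouped by the sample titles. Per the methods, the authors cleaned reads of adapters (Fastx Clipper), low-quality ends (sickle) and junk sequence. The submitters' processing notes name TopHat2, Cufflinks, Cuffdiff and the build GRCm38. Tool versions, annotation, strandedness and library scaling: not given in the sources used here. One FPKM column per library, as deposited, was used. Their group FPKM, fold changes, p-values and q-values were not used. The table has 48100 rows for 47086 loci.

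FPKM are not counts, so limma 3.58.1 (R 4.3.3) was fitted to log2(FPKM + 0.1) with genotype as its term, a mean-variance trend and a minimum mean of 1 FPKM in either genotype, and was tested on simulated data. Single values used exact permutation tests. Gene coordinates and promoters came from RefSeq (GRCm38.p6) and codons from GENCODE M21. The absolute depth is unknown, so the spread between 3 libraries sets the precision. The members and lists were chosen with earlier results of these data known. Values in each library are given for members with an unadjusted p below 0.05 or separated libraries. The 5 most abundant members and those detected under 1 FPKM are given by library or as mean and SD. Up to 10 other pathway genes are given by library, as mean and SD or, for *Selenom*, by log2 change. Alternatives were other pseudocounts and minimums, centring, no trend, a replicate block and each library left out.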

Additional observations from a re-analysis of the deposited data

How the results depend on the processing

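With each of the 6 libraries left out in turn, 0 members were lower at an adjusted p below 0.05 in limma (1 with all libraries), 7 to 11 were lower and 0 to 2 were higher at an unadjusted p below 0.05, and of the other pathway genes 6 to 14 were lower and 2 to 5 were higher. The median log2 change of the members was -0.05 to 0.01 in these fits. Without an FPKM minimum, 0 members were lower at an adjusted p below 0.05, 0 were higher at an unadjusted p below 0.05, and 2 and 13 other pathway genes were higher and lower. Without the mean-variance trend, 0 members were lower at an adjusted p below 0.05 and 0 were higher at an unadjusted p below 0.05. Pseudocounts of 1 and 0.01, a minimum of 5 FPKM and centring changed none of these counts by over 1.5 times. In the settings run, 0 of the named log2 changes turned direction. Summing the FPKM over all loci of a symbol changed the values of 0 members, so no separate fit was made for it. The cause of these shifts was not tested, beyond the fewer libraries or the larger number of loci in a fit. Replicate numbers are shared by the genotypes, but same-numbered libraries deviated together with r of 0.243, 0.0577 and 0.0801, and not every library correlated best with its own number, so the numbers were not taken as pairs. With the replicate number as a block, 1 member was lower at an adjusted p below 0.05 (*Txnip*, adjusted p = 0.0441), 8 were lower and 3 higher at an unadjusted p below 0.05, and 13 and 5 other pathway genes were lower and higher. Over all loci, 65 were below an adjusted p of 0.05 with the block and 35 without it, 54 with a minimum of 5 FPKM, 15 without a minimum and 21 without the trend. The unknown depth limits what can be said of genes under 1 FPKM.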

Other observations

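Iron handling is tied to this defence, since free iron turns peroxide into hydroxyl radicals, and both ferritin subunits were among the pathway genes outside the list with higher values in *Fmr1* KO. *Ftl1*, the ferritin light chain, had 207, 186 and 197 FPKM in WT replicates 1 to 3 and 240, 235 and 236 in *Fmr1* KO (log2 change 0.27, standard error 0.05, adjusted p = 0.0753 in limma). *Fth1*, the heavy chain, was at 963 ± 64.8 FPKM in WT and 1083 ± 21.0 in *Fmr1* KO (n = 3, SD; log2 change 0.17, adjusted p = 0.239 in limma). Both were higher in 3 of 3 *Fmr1* KO libraries than in any WT library. Among the 20 tested genes of their group, the NRF2 axis and iron and heme handling outside the list, 6 lay wholly higher and 1 wholly lower. Besides *Ftl1* and *Fth1*, the higher ones were *Bach2*, *Mafg*, *Rbx1* and *Ugdh*, each at an unadjusted p above 0.05 in limma. The lower one was *Cul3*. The shares over all tested loci were 10.8% and 10.3%. The ratio of *Fth1* to *Ftl1* FPKM within a library was 4.89 ± 0.0829 in WT and 4.57 ± 0.127 in *Fmr1* KO (n = 3, SD), without overlap. Of the 20 tested genes of the NRF2 axis and of iron and heme handling outside the list, 2 (*Ftl1* and *Fth1*) had an unadjusted p below 0.05 in limma with higher values and 0 with lower ones, where 6.99% and 7.77% of all tested loci did, and 0 passed adjustment. *Fth1* and the ratio were described after their values were seen, and ferritin genes have many processed copies, so reads could be split between them.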
